A study of Mus musculus with 11 samples.

Results

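The clustered protocadherins are the cell adhesion genes named Pcdha, Pcdhb and Pcdhg, which lie side by side in 3 tandem clusters on mouse chromosome 18. Members were selected on their gene symbol, and 58 of the 56980 genes in the tables belong to them: 14 alpha, 22 beta, 12 gamma A, 7 gamma B and 3 gamma C genes. The family itself was chosen by CPM values (counts per library scaled to a common size) in these same data, in which 1 beta member, Pcdhb22, had been seen higher in cGAS knockout (KO) than in wild-type (WT) libraries. Every KO minus WT value of a member below is therefore a description and is printed without its p-value. Counts of members past a threshold in that contrast are given beside those of all entries, and nothing is read from them. RNA was sequenced after ribosomal RNA depletion from primary lung fibroblasts, the collagen-making connective tissue cells of the lung, of mice that lack cGAS and of wild-type mice. cGAS, encoded by Cgas, is an enzyme that detects DNA outside its normal place and starts innate immune signalling. The groups were cGAS KO females (n = 3), cGAS KO males (n = 3), WT females (n = 2) and WT males (n = 3), each library from a separate mouse. Culture was at 37 °C with 5% O2 and 5% CO2, in DMEM/F12 with 15% FBS, for every group. The labels give no age, strain, allele or passage number, and their RNA extraction text speaks of pulverized tissue, which could not be reconciled with cultured cells from the sources used here.

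Protocadherins are single-pass membrane proteins with cadherin repeats on the outside of the cell. Each variable exon of the alpha and gamma clusters has a promoter of its own and is spliced to constant exons shared by the whole cluster, whereas each beta gene is a single coding exon without shared exons. In neurons, each cell turns on its own mixture of promoters, through DNA methylation, CTCF and cohesin loops to distant enhancers, and the resulting proteins bind only to matching sets on other cells, which lets a neuron tell its own branches from those of others. The C-type members at the end of the alpha and gamma clusters are regulated apart from this choice. Lung fibroblasts are not a cell type in which this choice is usually studied.

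The label was checked on the fibroblasts' defining genes. All 10 markers listed for this cell type passed the low-count filter, and together they held 37823 to 54289 CPM in each library. Of 8 neuron markers, 5 were below the filter, and Snap25 had no count in any library. Cgas itself fell in KO, from 8.24 ± 1.75 CPM (SD, n = 5) to 2.07 ± 0.255 (SD, n = 6), a log2 difference of -1.98 (SE 0.15, edgeR adjusted p = 0.000954), and reads from the gene were still present in every KO library, at 52 to 111 counts. The labels do not say which part of the gene was deleted. Libraries held 27261958 to 48039328 counts. A pair of libraries stood apart for the protocadherins. KO female 2 had the highest CPM of 13 of the 14 alpha members and of 9 of the 18 beta members that passed the filter. WT female 2 had the lowest CPM of all 14 alpha members and of 21 of the 22 gamma members, the smallest median correlation with its fellow libraries (0.955) and the largest share of counts in repeats (10.2%). KO female 2 was not apart on these last measures, with a median correlation of 0.986 and 6.63% of counts in repeats. Values are given with and without these libraries where they matter. The pair was noticed on the members' own values. Removing a highest KO and a lowest WT library lowers KO minus WT values by construction. Values without both are therefore a description and no independent check. Without WT female 2, WT female 1 is the only WT female left.

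How much each row says about its own promoter differs between clusters. In the GENCODE vM21 annotation of GRCm38, all 14 alpha genes share 2860 exonic bases, all 22 gamma genes share 2116, and no base is shared by all 22 beta genes. Of the beta genes, only the neighbours Pcdhb21 and Pcdhb22 overlap, by 455 exonic bases, which are 9.67% of Pcdhb21 and 6.88% of Pcdhb22. Cut into windows of 75 bases, the beta genes had a median of 98.8% of windows found in no other member (range 91.0% to 100%), with 94.0% for Pcdhb22 and the lowest share for Pcdhb21. For alpha genes the range was 40.7% to 57.3%, for gamma A 36.2% to 68.9%, for gamma B 41.3% to 67.1% and for gamma C 62.7% to 73.6%. The counts showed the same division. In WT female 2, 10 of the 14 alpha members had exactly 3 counts, and in KO female 3, 7 members had exactly 7. In the gamma cluster, Pcdhgb8, a polymorphic pseudogene, was the lowest member in all 11 libraries, with 237 to 626 counts. The level of the lowest member, multiplied over the members, held 34.7% to 50.1% of all alpha counts and 53.0% to 57.2% of all gamma counts. How reads in shared exons were assigned is not given in the sources used here, so the count above the lowest member is given beside the count itself for the alpha and gamma genes. This reading was added after the equal counts had been seen.

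**Figure D1:**
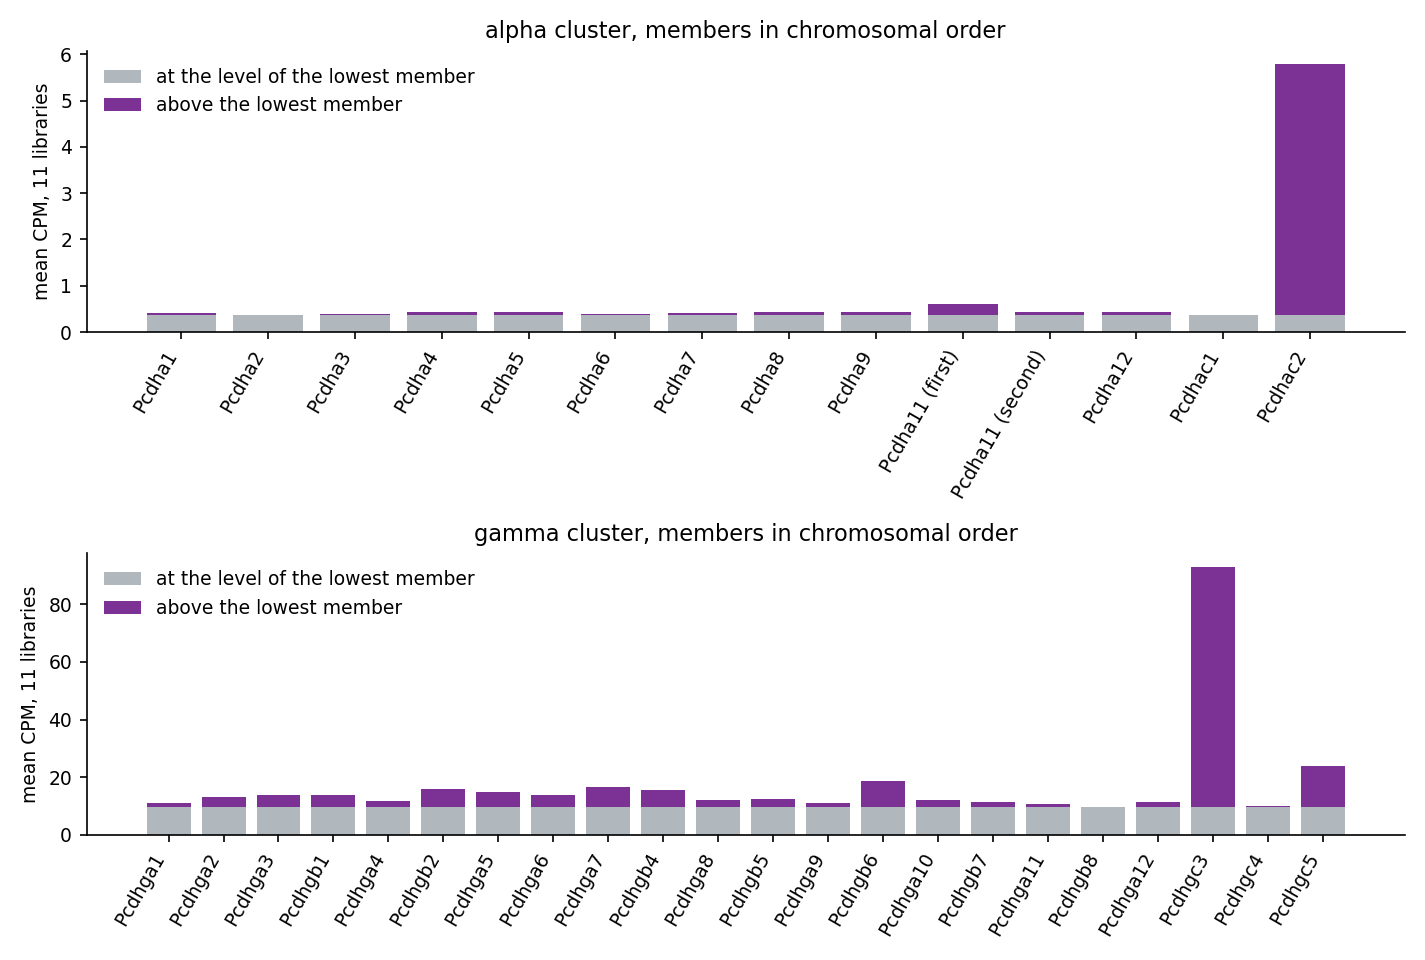
Mean CPM over 11 libraries (vertical axes, on different scales) of the alpha (top) and gamma (bottom) members in chromosomal order. Each bar is split into the level of the lowest member in each library (grey) and the count above it (purple). Pcdhac2 stands out in the alpha cluster at 5.79 CPM, and Pcdhgc3 in the gamma cluster at 93.1 CPM.

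In the alpha cluster, a single C-type gene held most of the counts above the lowest member, 65.2% in KO female 2 and 85.8% to 96.2% in the other 10 libraries. Pcdhac2, the last member of the cluster, had 76 to 393 counts and 5.79 CPM on average, of which 5.42 CPM, or 93.6% of its own counts, lay above the lowest alpha member. The other 13 alpha rows had means of 0.377 to 0.599 CPM. The next by level was the first of 2 genes that both carry the symbol Pcdha11 in the annotation (ENSMUSG00000007440, here "Pcdha11 (first)"), with 0.230 CPM above the lowest member. That value was 1.08 CPM in KO female 2 and at most 0.130 CPM in the WT libraries. In the order of the cluster it stands where RefSeq, on GRCm38, has Pcdha10, so which of these genes the row measures is uncertain. Pcdhac1, the other alpha C-type gene, had 35 counts or fewer in each library and 2.25% of its counts above the lowest member.

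The gamma cluster gave the most counts of the 3. Its C-type gene Pcdhgc3 averaged 93.1 CPM, higher than 90.8% of the 22298 entries tested, and 83.6 CPM of it lay above the lowest gamma member. Of the 5499 exonic bases of Pcdhgc3, 1559 lie opposite an exon on the other strand. The strand setting of the counts is not given, so reads from that strand may be included. Pcdhgc5 averaged 24.0 CPM, with 14.5 CPM above the lowest member. Pcdhgc4, the C-type gene between them, averaged 9.95 CPM, of which only 0.478 CPM lay above the lowest member. Of the gamma A and gamma B genes, which carry the variable exons further upstream, Pcdhgb6 had 9.17 CPM, Pcdhga7 7.06 CPM and Pcdhgb2 6.29 CPM above the lowest member. In Pcdhga7, 536 exonic bases lie opposite an exon on the other strand.

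Members of the beta cluster have no exons in common, apart from the overlap of Pcdhb21 and Pcdhb22, and are compared by their rows. Per kilobase of exon, Pcdhb17 was highest with 1.61 ± 0.356 CPM per kb (SD, n = 11), then Pcdhb22 with 1.38 ± 0.304 and Pcdhb16 with 1.04 ± 0.300. The first and second of these lie within each other's spread. Pcdhb5 followed at 0.591 ± 0.142. Levels tended to be higher in the downstream part of the cluster, in a split at Pcdhb14 that was not planned. Pcdhb5, in the upstream part, lay above the downstream median. The 9 genes from Pcdhb14 to Pcdhb22 had a median of 0.423 CPM per kb (0.328 to 1.61), and the 13 genes from Pcdhb1 to Pcdhb13 had a median of 0.107 (0 to 0.591). On the CPM scale, which is not corrected for gene length, the 9 downstream genes took 75.6% to 85.8% of all beta counts in every library. Pcdhb1 had no count in any library, which allows a level of up to 0.0609 to 0.110 CPM (3 counts, counting error only). Pcdhb6, Pcdhb10 and Pcdhb12 had 13 counts or fewer in each library and, with Pcdhb1, were the 4 members below the low-count filter.

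**Figure D2:**
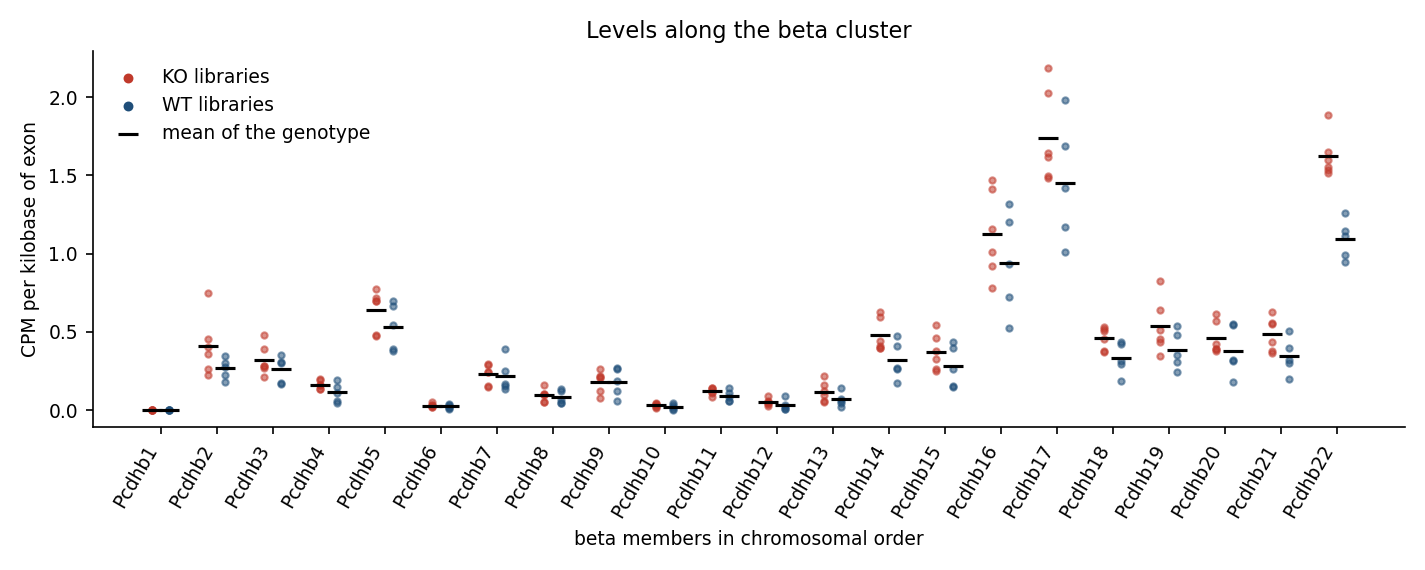
CPM per kilobase of exon (vertical axis) of the 22 beta members in chromosomal order, with 1 point per KO library (red) and per WT library (blue) and a bar for the mean of each genotype. Pcdhb16, Pcdhb17 and Pcdhb22 are the highest members, and Pcdhb22 is the only one whose KO and WT points do not overlap.

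The comparison of KO and WT asks which genes change without cGAS. Pcdhb22 had 10.1, 12.4 and 10.6 CPM in the KO females and 10.3, 10.9 and 9.99 CPM in the KO males. In WT it had 7.58 and 7.34 CPM in the females and 6.53, 6.25 and 8.33 CPM in the males. All 6 KO libraries therefore lay above all 5 WT libraries, with KO female 2 the highest and WT male 2 the lowest. The means were 10.7 ± 0.906 CPM (SD, n = 6) and 7.20 ± 0.834 (SD, n = 5), and the fitted log2 difference, with sex in the model, was 0.56 (SE 0.10). It was 0.57 (SE 0.15) in females and 0.56 (SE 0.13) in males. Without KO female 2 and WT female 2 it was 0.53. Pcdhb22 was the only member of 58 without overlap between the genotypes, in a contrast in which 1.36% of the 22298 entries tested had none and 1.01% had none with KO higher.

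No member passed the threshold of an adjusted p of 0.05 in edgeR's quasi-likelihood test, in which 0.00448% of the 22298 entries did (Cgas alone). At an unadjusted p under 0.05 stood 5 of the 54 members tested, against 17.2% of all entries. DESeq2 called 1 member among 525 entries, and limma-voom with sample weights called 2 among 2779 entries. Calls without WT female 1 are not given, because WT female 2 is then the only WT female. Since the contrast led to the choice of the members, nothing is read from these counts.

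**Figure D3:**
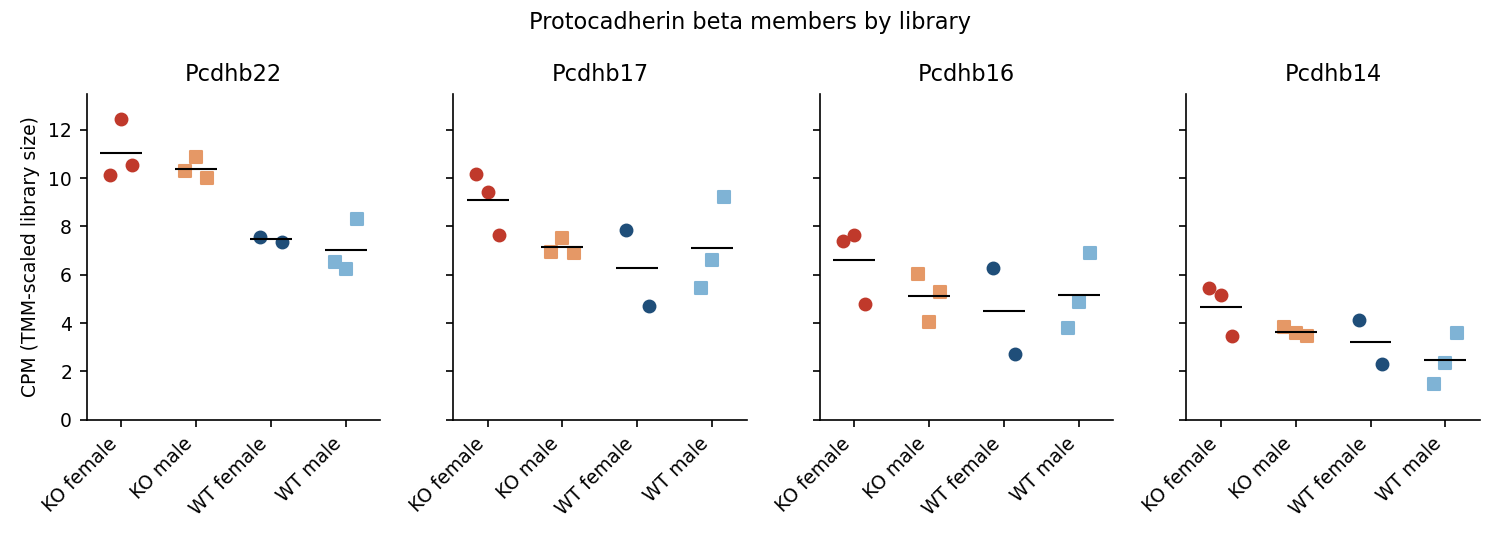
CPM (vertical axis, from 0) of the 4 beta members with the highest mean CPM, with 1 point per library by genotype and sex (circles for females, squares for males) and a line at each group's mean. KO and WT points are apart for Pcdhb22 and overlap for Pcdhb17, Pcdhb16 and Pcdhb14.

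The other beta members with like levels did not part in this way. Pcdhb17 had 10.2, 9.43 and 7.66 CPM in KO females and 6.96, 7.53 and 6.91 in KO males, against 7.86 and 4.71 in WT females and 5.44, 6.60 and 9.23 in WT males. Its log2 difference was 0.24 (SE 0.18), 0.54 (SE 0.26) in females and 0.01 (SE 0.22) in males. The libraries of both genotypes were interleaved, with WT male 3 above 4 of the KO libraries. Pcdhb16 ranged from 4.06 to 7.66 CPM in KO (median 5.67) and was 6.27, 2.73, 3.79, 4.87 and 6.89 CPM in WT, a log2 difference of 0.24 (SE 0.25). Without KO female 2 and WT female 2 these differences were 0.07 for Pcdhb17 and -0.01 for Pcdhb16. Pcdhb14 had a log2 difference of 0.56 (SE 0.23), as large as that of Pcdhb22. Its values were 5.43, 5.17 and 3.45 CPM in KO females, 3.85, 3.58 and 3.45 in KO males, 4.12 and 2.30 in WT females and 1.48, 2.36 and 3.58 in WT males. WT female 1 lay above 4 of the 6 KO libraries, so the genotypes overlapped. Values of 0.57 (SE 0.28) for Pcdhb2, 0.49 (SE 0.22) for Pcdhb21 and 0.43 (SE 0.19) for Pcdhb18 came with overlap too.

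Across the beta cluster, 17 of the 18 members tested had a KO minus WT value above 0, with a median of 0.42, against 48.5% and a median of -0.01 for all entries. Without KO female 2 and WT female 2, 13 of 18 were above 0, with a median of 0.22. The highest beta value was that of Pcdhb13, at 0.66 (SE 0.41), a gene with 3 to 36 counts. Pcdhb7 at 0.06 (SE 0.32) and Pcdhb9 at -0.06 (SE 0.38) were the lowest. Standard errors of the beta members ran from 0.10 to 0.42, and Pcdhb22 had the smallest.

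Summed over the cluster, the beta genes had 54.5, 60.9 and 45.3 CPM in KO females and 42.1, 41.4 and 44.8 in KO males. In WT the sum was 45.3 and 29.1 CPM in females and 25.9, 35.7 and 45.7 in males. The means of 48.1 ± 7.82 (SD, n = 6) and 36.3 ± 9.09 (SD, n = 5) differed by 0.41 on the log2 scale, with overlap, and by 0.26 without KO female 2 and WT female 2. WT male 1 was among the 2 lowest libraries for all 18 beta members tested. As a share of all beta counts, Pcdhb22 held 22.6% ± 2.78 (SD, n = 6) in KO and 20.6% ± 4.28 (SD, n = 5) in WT, and these shares overlapped.

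In the alpha cluster, all 14 members had a value above 0, with a median of 0.70, against 48.5% of all entries above 0. The alpha rows share exons and counts and are not separate observations. Pcdhac2 had 4.12, 7.73 and 4.47 CPM in KO females and 6.47, 8.23 and 7.98 in KO males, against 5.96 and 1.90 in WT females and 5.27, 6.27 and 5.28 in WT males. The KO and WT values overlapped, and WT female 2 lay far below the rest. The log2 difference was 0.45 (SE 0.26), and 0.16 without KO female 2 and WT female 2. Pcdha11 (first) had 0.52, 1.81 and 0.66 CPM in KO females and 0.49, 0.57 and 0.69 in KO males, against 0.44 and 0.18 in WT females and 0.32, 0.52 and 0.40 in WT males. KO female 2 exceeded every other library, and the genotypes overlapped. The 3 largest differences of all members were here, namely Pcdha11 (first) at 1.02 (SE 0.41), Pcdha4 at 0.86 (SE 0.46) and Pcdha5 at 0.83 (SE 0.45). Without those libraries they were 0.49, 0.26 and 0.24, and the alpha median was 0.22. The summed alpha CPM was 13.3 ± 4.67 (SD, n = 6) in KO and 9.02 ± 3.48 (SD, n = 5) in WT, a log2 ratio of 0.56, which was 0.17 without both libraries.

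In the gamma cluster the values were small and close together. All 22 members lay above 0, from 0.04 (SE 0.13) for Pcdhga8 to 0.30 (SE 0.15) for Pcdhga2, with a median of 0.18. Among all entries, 48.5% lay above 0. The gamma rows share exons and counts and are not separate observations. Their median was 0.10 without KO male 3 and 0.09 without KO female 2 and WT female 2, with 21 of 22 above 0 in each case and Pcdhga8 below. Pcdhgc3 had a lowest, median and highest value of 79.3, 93.6 and 131 CPM in KO, and 85.9, 73.0, 85.6, 102 and 96.1 CPM in WT. These overlap, and the log2 difference was 0.15 (SE 0.12). Its level above the lowest gamma member was 86.9 ± 17.4 CPM (SD, n = 6) in KO and 79.6 ± 10.1 (SD, n = 5) in WT. Pcdhgc5 had a difference of 0.19 (SE 0.14), Pcdhgb6 0.17 (SE 0.10), Pcdhga7 0.26 (SE 0.16) and Pcdhgb2 0.23 (SE 0.12). The most abundant of the gamma A rows by mean CPM besides Pcdhga7, which were Pcdhga5 and Pcdhga3, had 0.20 (SE 0.13) and 0.22 (SE 0.14). KO male 3 was the highest library for 21 of the 22 gamma members. Summed CPM was 161 ± 25.6 in KO and 142 ± 22.6 in WT for gamma A, 102 ± 12.7 and 91.3 ± 13.1 for gamma B, and 132 ± 25.1 and 120 ± 12.7 for gamma C (SD, n = 6 and 5), all with overlap. The log2 ratios of these sums were 0.17, 0.16 and 0.14, and 0.07, 0.08 and 0.08 without KO female 2 and WT female 2. Without KO male 3 they were 0.08, 0.08 and 0.03.

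**Figure D4:**
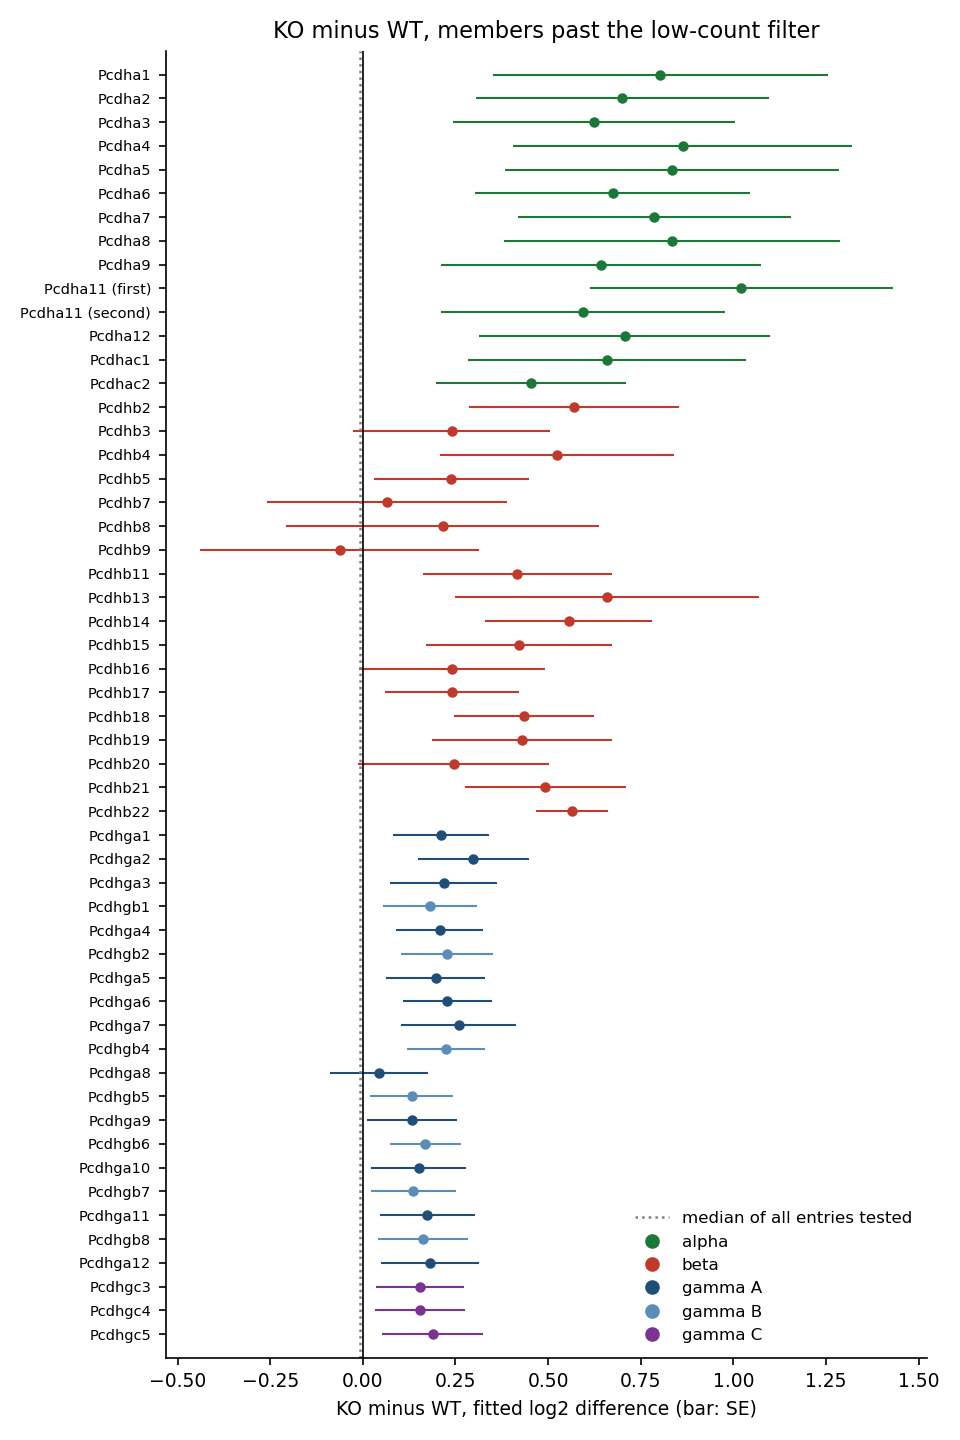
Fitted KO minus WT log2 difference (horizontal axis, bars are SE) of the 54 members past the low-count filter, in chromosomal order from the top and coloured by group. The dotted line is the median of all entries tested, -0.01. The 3 largest values are alpha genes with wide errors, the gamma values lie near 0.18, and Pcdhb22 has the smallest error of the beta members.

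No marker of another cell type passed the threshold in KO minus WT in edgeR, and the lists leaned in different directions. All 10 leukocyte markers listed, among them the macrophage genes Cd68, Mrc1 and Lyz2, had KO minus WT values above 0, with a median of 0.52. Of these, 8 had an unadjusted p under 0.05, against 17.2% of all entries. Their summed level was 6535 to 11511 CPM in KO and 4766 to 6790 CPM in WT, and the ranges overlapped only slightly. Endothelial markers went both ways. Of 8, 3 lay above 0 and the median was -0.66, but the most abundant, Vwf and Kdr, had values of 0.76 (SE 0.24) and 0.43 (SE 0.16), the only ones with an unadjusted p under 0.05, and the summed level was 55.3 to 105 CPM in KO and 40.2 to 89.98 in WT. All 5 epithelial markers past the filter lay below 0 (median -0.73, 2 with an unadjusted p under 0.05), with sums of 9.02 to 35.2 CPM in KO and 19.6 to 43.6 in WT, and Epcam, Scgb1a1 and Nkx2-1 were below the filter. All 6 mesothelial markers lay below 0 as well (median -0.64, none with an unadjusted p under 0.05), with sums of 11.7 to 107 CPM in KO and 20.9 to 146 in WT. Of the 6 pericyte markers 2 lay above 0 (median -0.43), with sums of 91.0 to 122 CPM in KO and 90.7 to 185 in WT. The 10 fibroblast markers had 5 above 0 and a median of -0.01. Of 8 Schwann and neural crest markers, 5 passed the filter, with 4 above 0 and a median of 0.10. Their sum of 27.3 to 42.7 CPM in KO and 23.2 to 44.9 in WT was mostly Mbp, at 31.3 CPM on average, while Sox10 and Ngfr were below the filter. Of the neuron markers, 3 passed, with 1 above 0 and a median of -0.83. Their sum of 19.1 to 36.6 CPM in KO and 5.04 to 33.7 in WT was mostly Tubb3, at 22.0 CPM, and Rbfox3, Elavl3, Elavl4 and Syt1 were below the filter. The part of these cells in the protocadherin values was not tested. In bulk RNA, fewer cells that express a gene and less of its RNA per cell cannot be told apart.

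Whether the KO minus WT difference depended on sex was tested with an interaction term, which the choice of members had not used. No member passed, and none of the 22298 entries did (0.0%) in edgeR. At an unadjusted p under 0.05 stood none of the 54 members and 13.0% of all entries, and DESeq2 and limma-voom called no member. Calls without WT female 1 are not given, because WT female 2, which stood apart, is then the only WT female. The smallest p-values belonged to Pcdhgc5, with a male minus female difference of the KO minus WT values of 0.48 (SE 0.25, edgeR adjusted p = 0.43), Pcdhb7 with -1.07 (SE 0.59, adjusted p = 0.456) and Pcdhb3 with -0.83 (SE 0.49, adjusted p = 0.477). Within females, 53 of the 54 members had a KO minus WT value above 0 (54.2% of all entries), with a median of 0.45, and within males 48 (48.1% of all entries), with a median of 0.20. Pcdhgc5 had 24.3, 27.8 and 31.6 CPM in KO males against 17.9, 22.1 and 23.4 in WT males. It had 17.9, 27.5 and 23.1 CPM in KO females against 24.4 and 23.7 in WT females. Its KO minus WT value was -0.08 (SE 0.18) in females and 0.40 (SE 0.16) in males. For Pcdhb22 the interaction was -0.00 (SE 0.20). Of 54 members, 3 had an interaction above 0 and 51 below, with a median of -0.18, against 47.0% of all entries above 0 and a median of -0.03. This count changed without KO female 2 and WT female 2: 6 of 54 were below 0 and 48 above, with a median of 0.26. WT female 1 was then the only WT female, so these values have no replicate in that group.

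Males and females were compared next, with genotype in the model, which again the choice of members had not used. Female and male libraries carry differently styled names in the files, so sex and any difference in preparation cannot be told apart. No member passed in edgeR, against 4.82% of the 22298 entries. At an unadjusted p under 0.05 stood 5 members of 54 and 27.8% of all entries. DESeq2 called 2845 entries and no member. Among the 5945 entries that limma-voom called were 2 members, Pcdhb13 and Pcdhb18, both lower in males. The female and male CPM of every member overlapped, whereas 5.38% of entries had no overlap. Clusters went different ways. Of the 18 beta members tested, 16 had a male minus female value below 0, with a median of -0.32, while all 22 gamma members lay above 0, with a median of 0.16. Among all entries, 52.7% lay above 0, and the median was 0.02. These directions were not tested as sets, and the gamma rows share counts. Without KO female 2 and WT female 2 the same counts of 16 and 22 were found, and the medians were -0.33 and 0.14.

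Single members showed how wide the spread was. Pcdhb15 had 1.29, 1.52 and 0.70 CPM in KO females and 1.22 and 1.10 in WT females, against 0.73, 0.91 and 1.06 in KO males and 0.44, 0.41 and 0.74 in WT males. Females were mostly higher, but KO female 3 lay among the males. The log2 difference of -0.71 (SE 0.25) had the smallest p of the members (edgeR adjusted p = 0.098). Pcdhb13 had 0.82, 0.58 and 0.44 CPM in KO females, 0.53 and 0.08 in WT females, 0.20, 0.35 and 0.22 in KO males and 0.17, 0.26 and 0.21 in WT males. Here 4 of 5 females lay above every male, and WT female 2 lay below them all. Its difference was -0.94 (SE 0.40, edgeR adjusted p = 0.155). It was -1.28 without WT female 2 and -1.31 without KO female 2 and WT female 2. WT female 1 was then the only WT female. Pcdhgb4 was 0.25 higher in males (SE 0.11, edgeR adjusted p = 0.147). Pcdhb22 had a value of -0.09 (SE 0.10). In the alpha cluster, 12 of 14 members lay above 0 and 1 of 14 without WT female 2. The largest alpha value, 0.49 (SE 0.26, edgeR adjusted p = 0.237), was that of Pcdhac2.

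**Figure D5:**
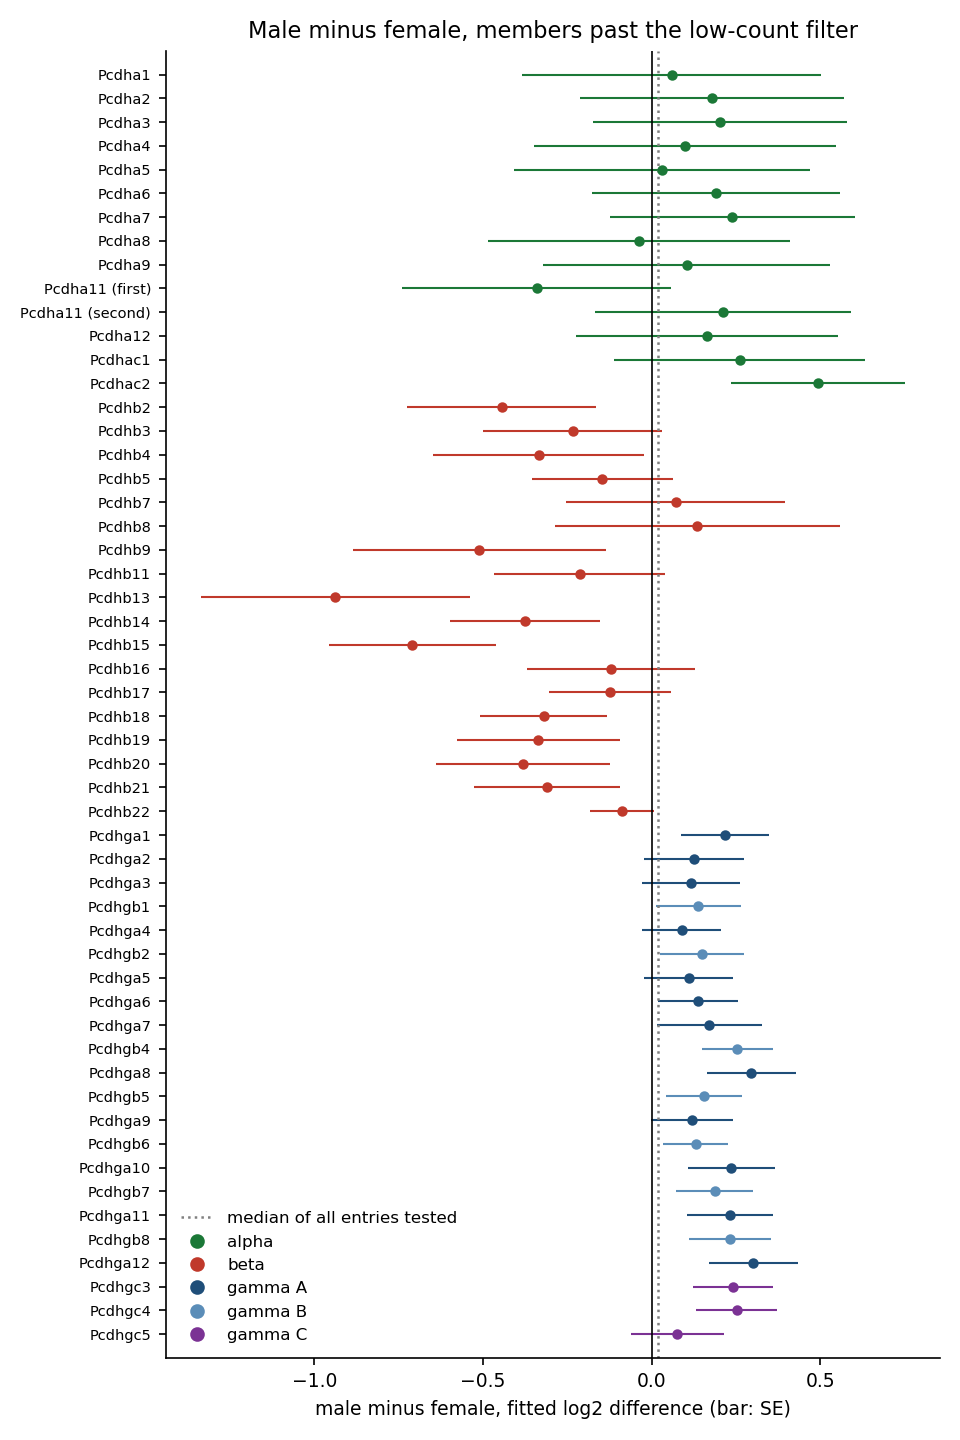
Fitted male minus female log2 difference (horizontal axis, bars are SE) of the 54 members past the low-count filter, in chromosomal order from the top and coloured by group. The dotted line is the median of all entries tested, 0.02. Beta members lie mostly left of 0 (16 of 18) and gamma members right of it (22 of 22), and no member passed the threshold.

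Genes that act with the protocadherins were described from lists chosen with earlier results of these data known. Counts of unadjusted p-values under 0.05 in KO minus WT stand against 17.2% of all entries. Among 11 chromatin loop factors, which include CTCF and the cohesin subunits, none passed in KO minus WT in edgeR, none had an unadjusted p under 0.05, and 7 values lay above 0 (median 0.04). Rad21, a cohesin subunit, had 129 ± 11.4 CPM (SD, n = 6) in KO and 125 ± 25.0 (SD, n = 5) in WT. The cohesin subunit Stag2 and the cohesin loader Nipbl differed by -0.02 (SE 0.06) and 0.00 (SE 0.06). Of 9 silencing factors, none passed and 7 lay above 0, with a median of 0.10 and 2 unadjusted p-values under 0.05. The DNA methyltransferase Dnmt3a had 154 ± 18.6 CPM in KO and 131 ± 13.0 in WT (SD, n = 6 and 5), a log2 difference of 0.24 (SE 0.08, edgeR adjusted p = 0.191). Dnmt1, the maintenance methyltransferase, and Trim28, a corepressor, differed by 0.14 (SE 0.12) and -0.08 (SE 0.09).

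Of 13 genes for binding partners and protein processing, none passed in KO minus WT, 11 lay above 0 (median 0.12) and 4 had an unadjusted p under 0.05. Adam10, a protease that sheds protocadherin ectodomains, differed by 0.11 (SE 0.08), and Ctnnb1, which encodes beta-catenin, by 0.14 (SE 0.09). Wasf2, a subunit of the WAVE complex that builds actin branches, was higher in males by a log2 difference of 0.31 (SE 0.07, adjusted p = 0.0452 in edgeR). It was the only gene of these 5 lists past the threshold for sex, which 4.82% of all entries passed. This call was lost in 14 of 19 alternatives, all with the same direction. The adjusted p was 0.00304 in limma-voom, 0.0519 with the size factors of DESeq2 and 0.0608 for genes alone, both in edgeR. Without KO female 2 and WT female 2 the log2 difference was 0.24. The 10 non-clustered protocadherins tested, which lie elsewhere in the genome, had a median of -0.17 in KO minus WT with 1 of 10 above 0, and none passed or had an unadjusted p under 0.05. The most abundant, Pcdh7, had 164 ± 44.2 CPM in KO and 164 ± 29.1 in WT (SD, n = 6 and 5). Pcdh1 differed by -0.14 (SE 0.16) and Pcdh19 by 0.27 (SE 0.48). Of 10 genes between and beside the clusters, none passed, 7 lay above 0 (median 0.04) and 2 had an unadjusted p under 0.05. Among these neighbours Diaph1, an actin nucleator, differed by 0.20 (SE 0.08, edgeR adjusted p = 0.247), Hdac3, a histone deacetylase, by 0.03 (SE 0.10), and Hars, a histidyl-tRNA synthetase, by -0.03 (SE 0.12).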

How the data were processed

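For each library, the deposited data are unnormalized counts of reads for 56980 genes and 1243 repeat subfamilies. The submitters' processing notes name Trim Galore, the aligner STAR and the build GRCm39. The counting program, its strand setting and its treatment of shared exons are not given in the sources used here. Symbols, gene order and exon lengths came from GENCODE vM21 of the older GRCm38 build, which gave a symbol for 52073 genes. No coordinates are printed, because the builds differ, and antisense overlaps could not be told apart without strand.

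All 58223 entries were fitted together by the quasi-likelihood method of edgeR 4.0.16 under R 4.3.3, with TMM scaling and filterByExpr. Of these, 22298 passed the filter and gave the Benjamini-Hochberg adjustment at a threshold of 0.05. KO minus WT and male minus female used sex and genotype as terms (8 residual degrees of freedom). Within-sex values and the interaction used a mean per genotype and sex (7 degrees of freedom). TMM factors were 0.963 to 1.03. A count of 0 allows up to 3 counts. Errors are SD for CPM and SE for log2 differences. Replicates were compared before averaging: chi-square per degree of freedom within a group was 12.0 to 144. The fit was checked on simulated counts. DESeq2 1.42.0 and limma 3.58.1 served as alternatives.

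Members and lists were chosen with earlier results of these data known. Members named were Pcdhb22, the 3 highest by mean CPM in each group, those with no count, the 3 highest and 3 lowest by KO minus WT, and the 3 smallest p-values of the other contrasts, and of each list the 3 genes highest by mean CPM. Pcdhgb8, Pcdhac1, Pcdhb2, Pcdhb5, Pcdhb6, Pcdhb10, Pcdhb12, Pcdhb14, Pcdhb18, Pcdhb21 and Pcdhga2 were added after their values were seen.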

Additional observations from a re-analysis of the deposited data

Results flagged for a closer look

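In groups of 5 or 6 libraries of a genotype, 158 sets of values were searched for a highest or lowest library with a wide gap to the next, and 12 were found. Chance gives about 1 in 20. All 12 came from KO female 2 (7) or WT female 2 (5). KO female 2 was highest in KO for Pcdha1 (1.08 CPM, next 0.508), Pcdha4 (1.18, next 0.552), Pcdha5 (1.18, next 0.530), Pcdha8 (1.25, next 0.548), Pcdha9 (1.02, next 0.508), Pcdha11 (first) (1.81, next 0.691) and Pcdhb22 (12.4, next 10.9). WT female 2 was lowest in WT for Pcdha4 (0.0752 CPM, next 0.316), Pcdha8 (0.1002, next 0.316), Pcdhac2 (1.90, next 5.27), the partner gene Ctnnb1 (263, next 330.1) and the neighbouring gene Hdac3 (25.4, next 40.0). The alpha rows share exons, so that these are not separate events.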

How the results depend on the processing

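The log2 ratios of summed CPM kept their sign under plain library totals, genes alone and every single library left out. With single libraries left out they ran from 0.34 to 0.65 for alpha, 0.29 to 0.50 for beta, 0.08 to 0.23 for gamma A, 0.08 to 0.21 for gamma B and 0.03 to 0.18 for gamma C. Alternatives added after seeing the data were counts above the lowest member (0.53 for alpha, 0.29 for gamma A, 0.21 for gamma B and 0.14 for gamma C) and the removal of KO female 2 and WT female 2 together. Pcdhb22 in KO minus WT ran from 0.51 to 0.70 over all alternatives.

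Counts of members called depended on the tool. In KO minus WT, DESeq2 called 1 and limma-voom 2, and nothing is read from these because that contrast led to the choice of members. For male minus female, limma-voom called 2. With single libraries left out, edgeR called no member in any contrast while both WT females were kept. Calls and p-values from fits without WT female 1 or WT female 2 are not given, because only 1 WT female is then left. Only effect sizes are given from such fits, and whether a member passes in them is not reported. Over all entries, KO minus WT calls numbered 1 in edgeR, 525 in DESeq2 and 2779 in limma-voom, 3 without the low-count filter and 3 without KO female 1. Male minus female calls numbered 1075 in edgeR, 2845 in DESeq2, 5945 in limma-voom and 604 for genes alone. With single libraries other than the WT females left out they numbered 112 to 1710. Genotype-by-sex calls numbered 226 in DESeq2 and 2 without the filter. The causes were not tested.

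Small differences reversed. Nipbl in KO minus WT was -0.00382 with the size factors of DESeq2, -0.0130 in DESeq2, -0.00477 in limma-voom and -0.0123 for genes alone, and -0.0258 to 0.0365 with single libraries left out. Under the same removals Pcdh7 ran from -0.199 to 0.0536, Pcdh19 from -0.0987 to 0.653, Stag2 from -0.0669 to 0.0159, Hars from -0.141 to 0.0470 and Hdac3 from -0.0812 to 0.121. Pcdh7 was 0.00206 with no sex term, and Hdac3 -0.0539 in limma-voom. Without both KO female 2 and WT female 2, Pcdh19 was -0.231, Stag2 0.0137 and Hdac3 -0.0778. The cause was not tested.

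Replicate numbers are shared between groups. Same-numbered libraries deviated together with correlations of -0.213 to 0.152 (n = 5 pairs), and libraries of unlike number with -0.402 to 0.363 (n = 10 pairs). Deviations within such small groups constrain each other. KO female 2, for example, had 0.186 with WT female 1 and -0.186 with WT female 2. These correlations therefore cannot decide whether the numbers pair the samples, and a pairing is not excluded. With the replicate block, members called were 0 in each contrast, and all entries called were 0 in KO minus WT and 271 in male minus female. Pcdhb22 was 0.58. Cgas was -1.95 with an adjusted p of 0.0715 in edgeR with the block and 0.000954 without it, and Wasf2 in male minus female was 0.32 with an adjusted p of 0.065. The depth limits Pcdhb1, Pcdhb6, Pcdhb10, Pcdhb12 and most alpha members, which have few counts of their own.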
